A study of Mus musculus with 18 samples.

Results

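Vitamin A (retinol) acts in tissues mainly through its acid. Cells oxidise retinol reversibly to retinal and retinal irreversibly to retinoic acid, and retinoic acid binds nuclear receptors that act on DNA as heterodimers with retinoid X receptors. The amount of the acid in a tissue is set by synthesis, by reduction of retinal back to retinol, and by breakdown by CYP26 hydroxylases, and in the developing heart the pathway is known for its part in patterning the chambers and the epicardium. Expression of 9 genes of this pathway was followed in infarcted mouse heart: Stra6, Dhrs3, Aldh1a1, Aldh1a2, Aldh1a3, Cyp26b1, Rara, Rarb and Rarg. The genes were chosen by name out of the 24419 gene symbols of the expression table, and Cyp26b1 headed the choice because it had been seen among the largest falls after AMI (acute myocardial infarction) in these same mice. The values of Cyp26b1 are therefore given as a description, with no test.

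The data came from 18 male C57BL/6 mice that were 8 weeks old, with 3 mice in each of 6 groups. The control group, called sham in the study, had no AMI, and in the other groups the left anterior descending coronary artery was tied off near its origin and the heart was taken 10 min, 1 h, 6 h, 24 h or 72 h later. All mice were anaesthetised with sodium pentobarbital, and the tissue was heart per the labels and infarcted left ventricle per the study's methods. Poly(A) RNA was sequenced, and expression is given as FPKM, the number of fragments of a gene scaled by transcript length and by the depth of the library. The 18 columns summed to between 542418 and 600467 FPKM. Depth in reads was not given. A relative depth estimated indirectly from genes of low value, 583 to 1050 per mouse, ranged from 0.813 to 1.32 times that of the first sham mouse. Changes are differences of log2(FPKM + 1), which understate the change of low genes, with limma's standard error (SE). A gene was called at an adjusted p under 0.05 (limma, two-sided, Benjamini-Hochberg over all genes tested).

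Heart muscle markers were high in every mouse, and the makeup of the tissue moved with time. The summed level of 8 cardiomyocyte markers was 55765 to 59296 FPKM in sham mice and 20429 to 25375 FPKM at 72 h. Over the same interval 8 fibroblast markers went from 384 to 443 FPKM up to 3502 to 4104 FPKM, and 7 macrophage markers from 271 to 315 FPKM up to 4125 to 5460 FPKM. In bulk tissue, fewer cells of a type and less RNA per cell cannot be told apart. The first 6 h mouse stood apart: it had Sln at 12.5 FPKM, Myl7 at 18.7 FPKM, Myl4 at 63.0 FPKM and Bmp10 at 2.48 FPKM, which are genes of atrial muscle, whereas Sln, Myl7 and Bmp10 were near 0 in the other 6 h mice. The 6 h changes against sham of Dhrs3, Aldh1a2, Aldh1a3 and the receptors are therefore also given without this mouse. So are the 6 h counts of members and of the pathway lists. Most other 6 h results include it, among them medians, shares, sums, single genes of the lists and counts from 1 h to 6 h.

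No gene tested among them was called at 10 min or 1 h, and the pattern of calls then differed at each later time. Of all genes tested, 0.248% were called higher and 0.0978% lower in the 10 min mice, and 0.669% higher and 0.0526% lower in the 1 h mice. Counts of calls are given over 6 genes. They leave out Cyp26b1, Stra6, which was too low to test, and Aldh1a3, which passed the filter on low values only through mice taken at 6 h or later. Of the 6 genes 2 had an unadjusted p under 0.05 at 10 min and 1 at 1 h. The same held for 1955 of 13297 genes tested at 10 min and 1673 of 13300 at 1 h. At 6 h 1 of the 6 genes was higher (Aldh1a2) and 2 lower (Rarb, Rarg), against a background of 11.6% of genes higher and 16.8% lower. Without the first 6 h mouse 2 were higher, with Rara added, and 2 lower. At 24 h 1 was higher (Aldh1a2) and 2 lower (Aldh1a1, Rarb), against 26.2% of all genes higher and 11.4% lower. At 72 h 3 were higher (Aldh1a2, Rara, Dhrs3) and 1 lower (Rarb), against 53.1% of all genes higher and 24.2% lower.

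The median change of the 6 genes was -0.22 at 6 h, -0.33 at 24 h and 0.51 at 72 h on the log2(FPKM + 1) scale, where the median of all genes tested was -0.08, 0.13 and 0.29. These medians of all genes depend on scaling, and so do the changes of the 6 genes, whose medians are given as deposited only. Median-of-ratios scaling brought the medians of all genes to 0.01 at 24 h and 0.03 at 72 h. At 72 h it also lowered the change of each of the 6 genes, as for Dhrs3 from 0.81 to 0.49 and Rara from 0.84 to 0.56. The share of higher genes among all calls went from 69.8% to 50.3% at 24 h and from 68.7% to 52.1% at 72 h. Quantile normalization brought that share to 43.6% at 24 h and 42.5% at 72 h. At 6 h it was 40.9% as deposited, 54.8% after median-of-ratios scaling and 43.5% after quantile normalization. At 24 h and 72 h a log2 change of a member should be read against a shift of all genes of 0.13 and 0.29.

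**Figure D1:**
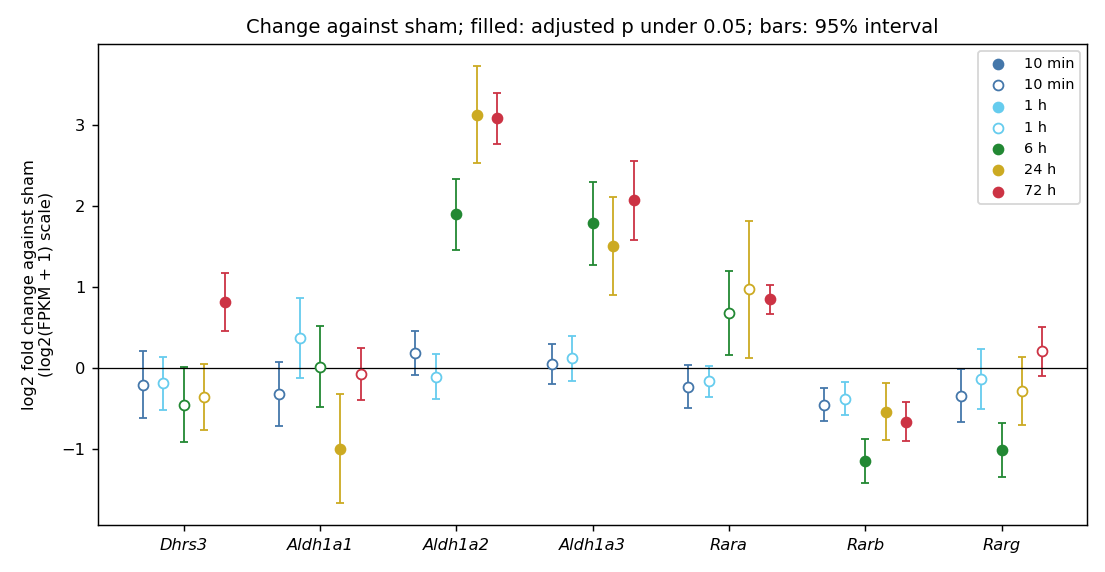
Change of 7 retinoic acid genes against sham at each time after ligation, as the difference of log2(FPKM + 1) between 3 AMI and 3 sham mice. Points are estimates, bars their 95% intervals, and filled points were called, where Aldh1a3 passed the filter on low values only through the later mice. Aldh1a2 and Aldh1a3 were above 0 at 6 h, 24 h and 72 h, Rarb was below 0 at the same times, and every 10 min and 1 h point is open.

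Uptake and reduction were represented by Stra6 and Dhrs3. Stra6 (chr9:58063788-58153996, plus strand, mm10) is the membrane receptor that takes up retinol from its carrier protein in blood. It was listed at 0 to 0.566 FPKM over the 18 mice, with its highest value in the third 24 h mouse, and it was the only one of the 9 genes that did not reach 1 FPKM in any mouse and was not tested. Aldh1a3 reached 1 FPKM only in mice taken at 6 h or later, so that its difference from sham is partly built into that filter.

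Dhrs3 (chr4:144892827-144928209, plus strand) encodes a reductase that returns retinal to retinol and so lowers the supply for the acid. Its level was 64.4, 80.4 and 52.4 FPKM in the sham mice. It was 46.9, 53.3 and 69.8 FPKM at 10 min, 54.0, 54.7 and 61.0 FPKM at 1 h, and 38.6, 60.4 and 44.2 FPKM at 6 h. At 24 h it was 54.5, 54.0 and 42.4 FPKM, and at 72 h 117, 98.3 and 129 FPKM. The first 5 groups overlapped each other, and the 72 h mice lay above all others. The rise at 72 h was 0.81 on the log2 scale (SE 0.16, adjusted p = 0.00131), or 1.75 times the sham mean, and from 24 h to 72 h the rise was 1.18 (SE 0.15, adjusted p = 0.000854). Median-of-ratios scaling left 0.49 of the rise against sham (adjusted p = 0.0268). At 6 h the change of -0.46 (SE 0.20) was not called (adjusted p = 0.123), and it was -0.32 without the first 6 h mouse (adjusted p = 0.291). It was called without the second 6 h mouse (-0.64, adjusted p = 0.0415) and with the replicate number as a block (0.0423), and over its other alternatives the adjusted p ran from 0.0661 to 0.324.

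**Figure D2:**
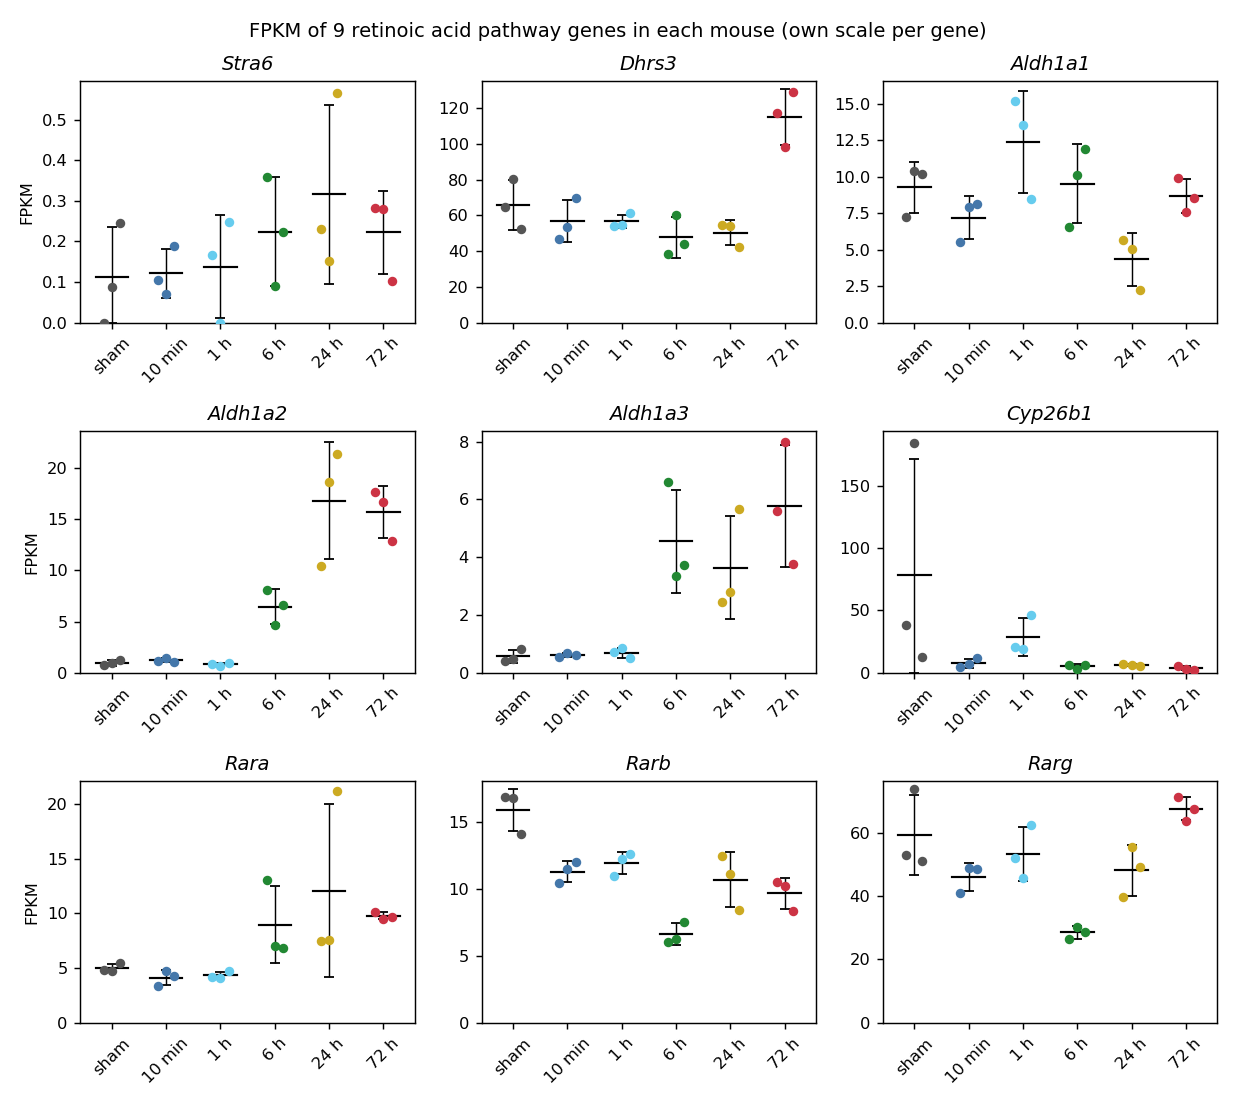
FPKM of the 9 genes in each of the 18 mice, with a scale of its own for each gene. Points are mice, horizontal lines the group means and bars ± 1 SD (n = 3), which are drawn down to 0 where they would go below it. Cyp26b1 spanned 12.9 to 185 FPKM within the sham group, and Dhrs3 at 72 h lay above all other groups.

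Synthesis of retinoic acid from retinal rests on the dehydrogenases ALDH1A1, ALDH1A2 and ALDH1A3, and their genes moved apart after AMI. Aldh1a2 and Aldh1a3 were near or under 1 FPKM in sham mice and at several FPKM by 6 h, whereas Aldh1a1, the most abundant in sham hearts, was lower at 24 h. The 3 genes lie on different chromosomes: Aldh1a1 at chr19:20492715-20643465 and Aldh1a2 at chr9:71215789-71296243, both on the plus strand, and Aldh1a3 at chr7:66390890-66427517 on the minus strand.

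Aldh1a2, the main retinal dehydrogenase of the embryonic heart and of the epicardium, was at 0.712, 0.960 and 1.24 FPKM in sham mice. It was at 1.16, 1.47 and 1.06 FPKM at 10 min and 0.812, 0.639 and 0.997 FPKM at 1 h. It then reached 8.05, 4.65 and 6.58 FPKM at 6 h, 10.4, 18.7 and 21.3 FPKM at 24 h, and 17.6, 16.6 and 12.8 FPKM at 72 h. All mice from 6 h on lay above all earlier mice, and the 24 h mice above all 6 h mice, while the 24 h and 72 h groups overlapped. The mean was 6.62 times that of sham at 6 h, 17.3 times at 24 h and 16.2 times at 72 h. The log2 change was 1.90 at 6 h (SE 0.19, adjusted p = 0.0011), 3.12 at 24 h (SE 0.26, adjusted p = 0.00146) and 3.08 at 72 h (SE 0.14, adjusted p = 2.15e-07). Without the first 6 h mouse the 6 h change was 1.74 (adjusted p = 0.00137).

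From 6 h to 24 h Aldh1a2 rose by a further 1.23 (SE 0.28, adjusted p = 0.0345). That call was lost without the second or the third 24 h mouse or any one of the 6 h mice (adjusted p from 0.0635 to 0.113), with the replicate number as a block (0.0947) and after median-of-ratios scaling (1.00, adjusted p = 0.0666). From 24 h to 72 h the change was -0.04 with an interval from -0.64 to 0.55. The sum of 10 markers of the mesothelium that covers the heart was 8.20 to 19.0 FPKM in sham mice, 6.94 to 21.4 FPKM at 6 h, 5.25 to 15.7 FPKM at 24 h and 34.7 to 92.5 FPKM at 72 h. Of 9 of them tested, 1 was called higher (Krt18) and 1 lower (Gpm6a) at 6 h, against 11.6% and 16.8% of all genes. At 24 h 2 were higher (Krt8, Krt18) and 2 lower (Upk3b, Gpm6a), against 26.2% and 11.4%. The fibroblast marker sum was 292 to 380 FPKM at 6 h and 367 to 493 FPKM at 24 h, near the sham range, but single markers moved apart. Of the 8 markers, none was called higher and 3 lower at 6 h (Lum, Col1a1, Col3a1), against 11.6% and 16.8% of all genes. At 24 h 4 were higher (Pdgfra, Col1a1, Col3a1, Postn) and 2 lower (Dcn, Dpt), against 26.2% and 11.4% of all genes. The macrophage marker sum was 226 to 308 FPKM at 6 h and 602 to 758 FPKM at 24 h. The part of any of these cell types in the level of Aldh1a2 was not tested.

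The 250 bases before the RefSeq start of Aldh1a2 are shown because this gene had the largest rise of the 9. The window is chr9:71215539-71215788 (GRCm38.p6, plus strand), and its last base stands next to the transcript start. It held none of the receptor half-sites described for Rarb further on.
Aldh1a2: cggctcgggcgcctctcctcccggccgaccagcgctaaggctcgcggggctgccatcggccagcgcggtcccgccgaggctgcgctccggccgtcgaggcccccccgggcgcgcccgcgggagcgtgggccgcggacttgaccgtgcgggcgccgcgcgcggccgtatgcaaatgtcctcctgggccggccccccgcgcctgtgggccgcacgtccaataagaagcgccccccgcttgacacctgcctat

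Aldh1a3, which makes retinoic acid in eye and nasal epithelia, was at 0.405, 0.492 and 0.823 FPKM in sham mice. It stayed between 0.519 and 0.862 FPKM in all 10 min and 1 h mice. It reached 6.59, 3.33 and 3.73 FPKM at 6 h, 2.45, 2.80 and 5.67 FPKM at 24 h, and 5.60, 7.98 and 3.75 FPKM at 72 h. The mice from 6 h on lay above all earlier ones, and their 3 groups overlapped each other. The log2 change was 1.78 at 6 h (SE 0.22), 1.50 at 24 h (SE 0.26) and 2.07 at 72 h (SE 0.21), and 1.53 at 6 h without the first 6 h mouse, which had the highest 6 h level. Since the filter favoured a difference in this gene, its adjusted p is given from the fit of all genes without the filter, at 0.00781, 0.0177 and 0.000382.

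Aldh1a1 encodes the dehydrogenase of this group that is widespread in adult tissues. Its level was 7.26, 10.4 and 10.2 FPKM in sham mice and 5.50, 7.95 and 8.17 FPKM at 10 min. At 1 h it was 15.2, 13.5 and 8.46 FPKM, and at 6 h 6.57, 10.1 and 11.9 FPKM. At 24 h it was 5.70, 5.07 and 2.24 FPKM, below every sham mouse, and at 72 h 9.93, 7.60 and 8.54 FPKM, within the sham range. The change at 24 h was -1.00 (SE 0.28, adjusted p = 0.0325), and the call was lost without any one of the sham mice (adjusted p = 0.0635, 0.106 and 0.0997). From 24 h to 72 h the level rose by 0.92 (SE 0.27, adjusted p = 0.0276), a call that was lost without any one of the 72 h mice (adjusted p = 0.088, 0.0588 and 0.0772) and after median-of-ratios scaling (0.0627) or quantile normalization (0.0976). At 72 h the change against sham was -0.08 (interval -0.40 to 0.25), but it was called lower after median-of-ratios scaling (-0.36, adjusted p = 0.0494) and quantile normalization (-0.51, adjusted p = 0.0129). The mouse paralog Aldh1a7, which was 89.0% identical to Aldh1a1 over 2039 aligned transcript bases, had a group mean of at most 0.02 FPKM, so that few fragments were assigned to it.

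Set side by side on the per-length scale, the 3 dehydrogenases changed places. Aldh1a1 made up 85.8 ± 2.42% (SD, n = 3) of their summed FPKM in sham mice, 46.8 ± 13.8% at 6 h, 19.2 ± 11.6% at 24 h and 29.2 ± 5.25% at 72 h. Aldh1a2 made up 8.91 ± 1.09% in sham mice, 31.1 ± 6.26% at 6 h, 66.4 ± 9.11% at 24 h and 52.0 ± 1.07% at 72 h. The share of Aldh1a3 went from 5.24 ± 1.33% in sham mice to 22.1 ± 7.81% at 6 h and 18.9 ± 5.20% at 72 h. The sum itself was 10.8 ± 2.13 FPKM in sham mice, 20.5 ± 2.15 FPKM at 6 h, 24.8 ± 5.57 FPKM at 24 h and 30.2 ± 4.39 FPKM at 72 h. Aldh1a1 was the highest of the 3 in 11 mice and Aldh1a2 in 7, namely the first 6 h mouse and all mice at 24 h and 72 h.

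**Figure D3:**
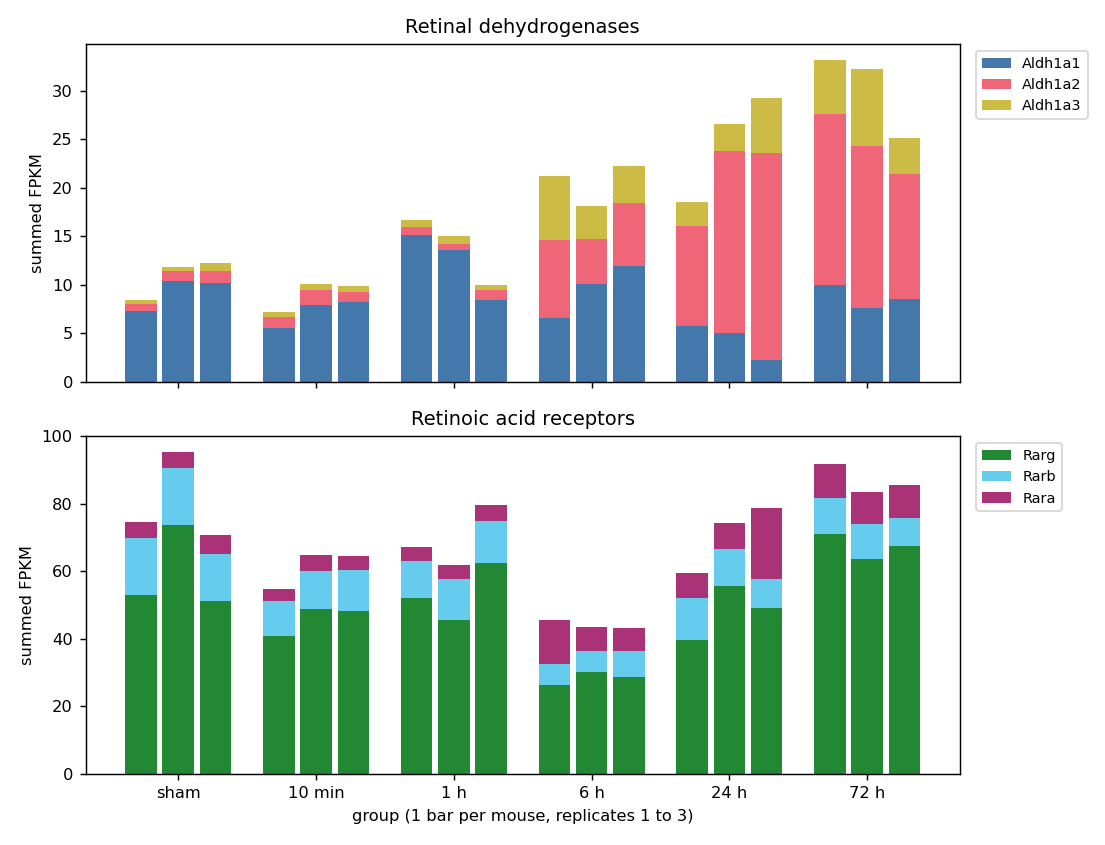
Summed FPKM of the retinal dehydrogenases (top) and of the retinoic acid receptors (bottom), with 1 stacked bar for each mouse in the order of replicates 1 to 3. Aldh1a2 filled most of each bar at 24 h and 72 h, and Rarg was the largest part of every receptor bar.

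Breakdown was represented by Cyp26b1 (chr6:84571414-84593908, minus strand), which hydroxylates retinoic acid and so clears it. Its level differed most among the sham mice, which had 37.9, 185 and 12.9 FPKM. It was 4.41, 7.27 and 11.6 FPKM at 10 min and 20.6, 18.8 and 46.5 FPKM at 1 h. At 6 h it was 6.02, 3.21 and 6.57 FPKM, at 24 h 7.13, 6.47 and 5.53 FPKM, and at 72 h 5.45, 3.32 and 2.21 FPKM. The 1 h mice lay within the range of the sham mice, while all 10 min mice and all mice from 6 h on lay below the lowest sham mouse. The group means came to 0.0987 of the sham mean for the 10 min mice and 0.365 for the 1 h mice, and then to 0.0671 (6 h), 0.0812 (24 h) and 0.0466 (72 h). The sham mean of 78.5 ± 92.8 FPKM (SD, n = 3) is set mostly by the second mouse, and without that mouse the log2 change at 1 h turned from -0.77 to 0.23. The 10 min and 1 h groups did not overlap, with the 1 h mice higher.

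The other CYP26 genes, Cyp26a1 and Cyp26c1, summed to at most 0.363 FPKM in any mouse, so that Cyp26b1 carried nearly all of the measured CYP26 transcript. Its 250 bases before the RefSeq start are shown because they belong to the gene on which the choice rested. The window is chr6:84593811-84594060 (GRCm38.p6, minus strand), and it held none of the half-sites described for Rarb.
Cyp26b1: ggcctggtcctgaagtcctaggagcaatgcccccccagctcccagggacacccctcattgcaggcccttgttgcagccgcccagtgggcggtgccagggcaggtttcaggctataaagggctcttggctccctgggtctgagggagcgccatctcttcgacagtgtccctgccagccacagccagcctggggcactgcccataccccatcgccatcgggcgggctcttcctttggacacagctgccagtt

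Within the sham group, the genes named next were also highest in the mouse with the most Cyp26b1, though some AMI mice had more of them. Dhrs3, Aldh1a1 and Rarg were highest in that sham mouse too. How many of all genes were highest there was not counted, so this is not a trait of the genes named. Among 12643 genes, those whose deviations from the group means were most like those of Cyp26b1 over the 18 mice were Amph (Pearson r = 0.83), Vti1b (0.79), Tmem39b (0.79), Meis2 (0.78) and Hlcs (0.76). Meis2, a homeobox gene of limb and heart development, was at 4.17, 8.17 and 3.97 FPKM in the sham mice, and thus also highest in the second. These values of r are a description that rests largely on that mouse.

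Retinoic acid acts through the receptors RARA, RARB and RARG, which bind DNA with or without the acid and whose target genes include Rarb itself. Their genes differed in direction after AMI: Rarb and Rarg were lower at 6 h, Rarg overlapped with sham at 72 h, Rarb stayed lower, and Rara was higher at 72 h. On the per-length scale Rarg was the highest receptor in 18 of 18 mice. The summed receptor level was 80.3 ± 13.2 FPKM in sham mice, 44.1 ± 1.24 FPKM at 6 h, 70.9 ± 10.1 FPKM at 24 h and 86.9 ± 4.28 FPKM at 72 h.

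Rarg (chr15:102234938-102257517, minus strand) was at 53.0, 73.8 and 51.1 FPKM in sham mice. It was at 40.8, 48.7 and 48.4 FPKM at 10 min, 52.1, 45.6 and 62.3 FPKM at 1 h, and 26.4, 30.3 and 28.8 FPKM at 6 h. At 24 h it was at 39.6, 55.5 and 49.2 FPKM and at 72 h at 71.1, 63.8 and 67.5 FPKM. The 6 h mice were the lowest of all 18, and the 72 h mice overlapped with sham. The change at 6 h was -1.01 (SE 0.14, adjusted p = 0.00366), and -0.96 without the first 6 h mouse (adjusted p = 0.00863). The rise from 6 h to 24 h was 0.72 (SE 0.15, adjusted p = 0.0262) and that from 24 h to 72 h 0.49 (SE 0.14, adjusted p = 0.0235). Both of these calls were lost after median-of-ratios scaling (adjusted p = 0.0752 and 0.0734), and the first also with the replicate number as a block (0.077). The rise to 24 h was not called without the second 24 h mouse or any one of the 6 h mice (adjusted p from 0.0706 to 0.092), nor that to 72 h without any one of the 72 h mice (0.0538 to 0.079). Against sham the 72 h change was 0.20 (interval -0.10 to 0.50), which became -0.11 after median-of-ratios scaling and was called without the second sham mouse (0.37, adjusted p = 0.00404).

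Rarb (chr14:16430839-16819156, minus strand) is both a receptor and a textbook target of retinoic acid. It was at 16.9, 16.8 and 14.2 FPKM in sham mice, 10.4, 11.5 and 12.0 FPKM at 10 min, and 11.0, 12.3 and 12.6 FPKM at 1 h. It was at 6.07, 6.24 and 7.57 FPKM at 6 h, 12.5, 11.2 and 8.46 FPKM at 24 h, and 10.5, 10.2 and 8.34 FPKM at 72 h. All 15 AMI mice lay below the lowest sham mouse, and the 6 h mice were the lowest of all 18. The change was -0.46 at 10 min (adjusted p = 0.0885) and -0.38 at 1 h (adjusted p = 0.163), neither of them called. It was -1.15 at 6 h (SE 0.12, adjusted p = 0.00112), or -1.10 without the first 6 h mouse (adjusted p = 0.0021), -0.55 at 24 h (SE 0.15, adjusted p = 0.0289) and -0.67 at 72 h (SE 0.10, adjusted p = 0.000397). The 24 h call was lost without any one of the sham mice (adjusted p = 0.104, 0.101 and 0.0572) or without the second 24 h mouse (0.0529).

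The measured level of Rarb may hold reads of its neighbour. Of 5265 annotated exon bases of Rarb, 1793 lie across exons of Top2b, a DNA topoisomerase gene on the opposite strand, and 227 across the antisense gene Gm48162. Whether the authors' estimates used strand is not stated, so that their reads cannot be told apart there. Top2b was at 28.8 ± 0.834 FPKM in sham mice and 27.8 ± 0.484 FPKM at 6 h (log2 change -0.05, adjusted p = 0.625), and at 38.8 ± 2.44 FPKM at 72 h (0.42, adjusted p = 0.000482), so it did not fall with Rarb.

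The 250 bases before the RefSeq start of Rarb (chr14:16575477-16575726, GRCm38.p6, minus strand) hold the element for which this promoter is known. The capitals mark a direct repeat of the receptor half-site with a spacer of 5 bases (DR5), which lies at positions -53 to -37 from the start.
Rarb: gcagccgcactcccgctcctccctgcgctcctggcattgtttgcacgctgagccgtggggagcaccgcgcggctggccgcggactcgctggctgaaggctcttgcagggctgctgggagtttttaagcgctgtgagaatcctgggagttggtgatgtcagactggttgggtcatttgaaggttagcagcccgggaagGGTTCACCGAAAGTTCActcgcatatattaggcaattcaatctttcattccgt
Repeats with spacers of 5, 2 or 1 bases (DR5, DR2, DR1) were searched on either strand. Within a repeat, a half-site was taken as AGGTCA or AGTTCA, each also with G in place of its first letter. Single half-sites were searched on either strand as AGGTCA and AGTTCA only, so a lone half-site that starts with G is neither marked nor counted. RefSeq windows were at hand for 8 of the 9 genes, as 18 windows, and not for Aldh1a3. The DR5 of Rarb was the only repeat found in them, and its second half-site is also the AGTTCA counted next. Over 32851 windows of all genes a DR5 was present in 0.0883%, a DR2 in 0.174%, a DR1 in 0.164%, AGGTCA in 14.0% and AGTTCA in 11.8%. The windows of Rarg held AGGTCA at positions -225 to -220, on the strand opposite to the gene, and those of Rara held AGTTCA at positions -199 to -194. A match is a description of the letters, not of binding.

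Rara (chr11:98927818-98974942, plus strand) was the lowest of the 3 receptors in sham mice, at 4.83, 4.75 and 5.45 FPKM. It was at 3.39, 4.74 and 4.26 FPKM at 10 min and 4.21, 4.13 and 4.70 FPKM at 1 h. It was at 13.1, 7.00 and 6.87 FPKM at 6 h, 7.47, 7.57 and 21.2 FPKM at 24 h, and 10.1, 9.53 and 9.64 FPKM at 72 h. Every mouse from 6 h on lay above every earlier mouse, and the spread was wide at 6 h and 24 h and narrow at 72 h. The change was 0.84 at 72 h (SE 0.08, adjusted p = 1.32e-05). It was 0.68 at 6 h (SE 0.22, adjusted p = 0.0567) and 0.97 at 24 h (SE 0.36, adjusted p = 0.0702), neither of them called. Without the first 6 h mouse the 6 h change was 0.40 and was called (adjusted p = 0.0306), and without the third 24 h mouse the 24 h change was 0.51 and was called (adjusted p = 0.00803). The share of Rara in the receptor sum was 6.38 ± 1.36% in sham mice, 20.2 ± 7.34% at 6 h, 16.5 ± 9.02% at 24 h and 11.2 ± 0.180% at 72 h.

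The mouse with the most Rara at 6 h and the mouse with the most at 24 h also had the most neutrophil transcript. The other mice of these groups were nearly equal in Rara. The sum of 5 neutrophil markers was 2.32 to 4.99 FPKM in sham mice, 997, 116 and 375 FPKM in the 6 h mice, and 209, 42.6 and 965 FPKM in the 24 h mice. The first 6 h mouse and the third 24 h mouse, which had 13.1 and 21.2 FPKM of Rara, were thus the highest on both measures. In the other mice of these groups the Rara values were too close to give an order, while their neutrophil sums differed. At 6 h the second mouse had 7.00 FPKM of Rara and the third, with more neutrophil transcript, 6.87 FPKM. At 24 h the first mouse had 7.47 FPKM of Rara and the second, with less neutrophil transcript, 7.57 FPKM. At 72 h the neutrophil sum was 49.6 to 60.2 FPKM, while Rara stood at 9.53 to 10.1 FPKM and the macrophage sum at its highest. The part of these cells in the level of Rara was not tested.

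**Figure D4:**
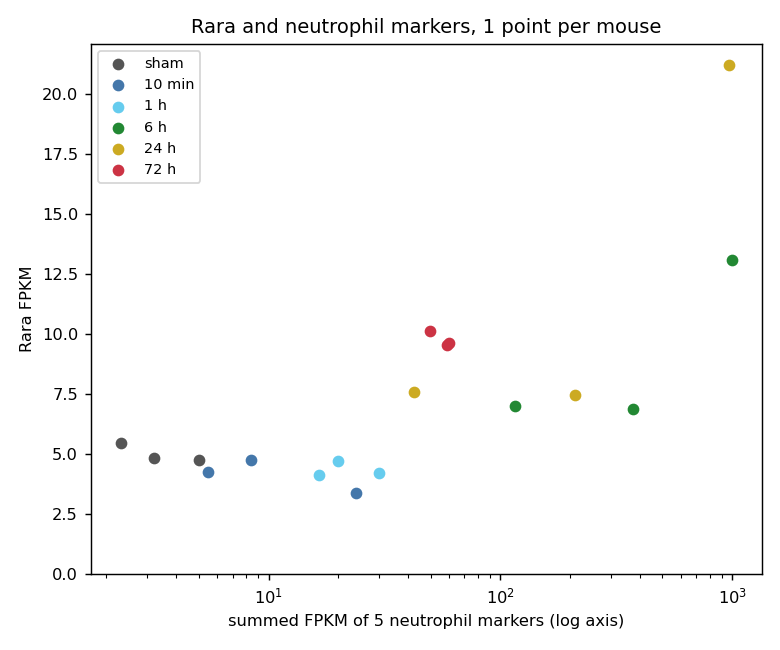
Rara in FPKM (vertical axis, linear) against the summed FPKM of 5 neutrophil markers (horizontal axis, log scale), with 1 point for each of the 18 mice coloured by group. The first 6 h mouse (997 FPKM of markers, 13.1 FPKM of Rara) and the third 24 h mouse (965 and 21.2 FPKM) lie at the upper right, and the 72 h mice (9.53 to 10.1 FPKM of Rara) lie above the second 24 h mouse, whose marker sum was 42.6 FPKM.

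Between successive times the same 6 genes were also compared. From 1 h to 6 h 2 were higher (Aldh1a2, Rara) and 2 lower (Rarb, Rarg), where 9.32% of all genes were higher and 11.2% lower. From 6 h to 24 h 2 were higher (Aldh1a2, Rarg) and none lower, where 12.5% of all genes were higher and 1.94% lower. From 24 h to 72 h 3 were higher (Dhrs3, Aldh1a1, Rarg) and none lower, where 29.7% of all genes were higher and 13.5% lower. The share of higher genes among all calls from 6 h to 24 h was 86.6% as deposited, 52.3% after median-of-ratios scaling and 57.3% after quantile normalization, and from 24 h to 72 h it was 68.8%, 54.0% and 44.8%. The rise of Rara from 1 h to 6 h was 0.85 (SE 0.22, adjusted p = 0.036), and the call was lost without any one of the 1 h mice (adjusted p = 0.1, 0.114 and 0.0833) and with the replicate number as a block (0.0527).

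The rest of the pathway was followed through 6 lists of related genes, none of which had a gene called at 10 min or 1 h. Beside their counts stand the shares of all genes given above, which were 11.6% higher and 16.8% lower at 6 h. The shares came to 26.2% higher and 11.4% lower at 24 h, then 53.1% higher and 24.2% lower at 72 h. These shares are as deposited, and rescaling moved the calls of all genes toward lower. At 24 h they went from 3496 higher and 1516 lower to 2460 and 2426 (median-of-ratios) or 2118 and 2736 (quantile). At 72 h they went from 7081 higher and 3226 lower to 5208 and 4792 (median-of-ratios) or 4278 and 5794 (quantile). Of the genes tested among 8 carriers, 1 of 4 was higher (Rbp7) and none lower at 6 h, 2 of 5 were higher at 24 h, and 4 of 5 were higher and 1 lower (Rbp7) at 72 h. Of the 4 higher at 72 h, Crabp1, Crabp2 and Stra6l reached 1 FPKM in 72 h mice alone and so passed the filter through the group where they were high, which leaves Fabp5. Fabp5, a fatty acid carrier that also binds retinoic acid, was at 88.3, 59.2 and 82.3 FPKM in sham mice and 695, 714 and 820 FPKM at 72 h (log2 change 3.28, SE 0.15, adjusted p = 1.98e-07). Crabp2, which hands retinoic acid to its receptors, was listed at 0 in 2 sham mice and at 2.32, 3.27 and 2.28 FPKM at 72 h. Stra6l, a relative of Stra6, was listed at 0 in the sham mice and at 1.82, 2.24 and 3.36 FPKM at 72 h. The fibroblast and macrophage marker sums were also highest at 72 h, and their part in these levels was not tested. Both 24 h calls of this list, Rbp7 and Fabp5, were lost under median-of-ratios scaling and quantile normalization.

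The reversible step between retinol and retinal changed in both directions. Of 11 oxidoreductases tested, 3 were higher and 3 lower at 6 h, 3 higher and 5 lower at 24 h, and 4 higher and 7 lower at 72 h (2 higher and 7 lower after quantile normalization). As deposited, the share of higher genes at 72 h was thus below that of all genes and the share of lower genes above it. Rdh12 and Dhrs9, counted here, reached 1 FPKM only in mice at 6 h or later. The list's median change was -0.12 at 6 h, -0.37 at 24 h and -0.35 at 72 h, where that of all genes was -0.08, 0.13 and 0.29. Rdh10, the main retinol dehydrogenase upstream of retinoic acid in the embryo, was at 3.44, 3.92 and 4.58 FPKM in sham mice, 12.1, 7.04 and 9.51 FPKM at 6 h, and 9.27, 9.97 and 21.8 FPKM at 24 h. It was higher than sham at 6 h (1.06, SE 0.18, adjusted p = 0.00738), at 24 h (1.47, SE 0.30, adjusted p = 0.0126) and at 72 h (0.59, SE 0.10, adjusted p = 0.000478), although the 72 h call was lost after quantile normalization. Adh1, an alcohol dehydrogenase that also oxidises retinol, was at 6.93, 8.85 and 7.15 FPKM in sham mice, 16.4, 25.2 and 22.3 FPKM at 6 h and 1.28, 0.907 and 1.04 FPKM at 72 h. It was thus higher at 6 h (1.35, SE 0.17, adjusted p = 0.00223) and lower at 72 h (-2.05, SE 0.11, adjusted p = 6.43e-07). Rdh12, highest at 7.25 FPKM in the first 6 h mouse and 5.29 FPKM in the third 24 h mouse, was high in the same mice as Rara and the neutrophil markers.

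Of 9 enzymes of retinyl esters and carotenoids, 4 were tested. Of these 1 was higher at 6 h (Lipe), 1 lower at 24 h (Ces1d) and 3 lower at 72 h (Lpl, Lipe, Ces1d), with a median change of -1.06 at 72 h where that of all genes was 0.29. Lpl, the lipoprotein lipase through which tissues also take up retinyl esters, was at 367 ± 15.1 FPKM in sham mice and 121 ± 8.74 FPKM at 72 h (-1.59, SE 0.08, adjusted p = 2.99e-07). Over the same interval the cardiomyocyte marker sum fell as given above, and its part in the level of Lpl was not tested.

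The receptors act with retinoid X receptors and cofactors. Of 9 such genes, none was higher and 3 were lower at 6 h (Rxra, Rxrb, Rxrg), 1 higher and 2 lower at 24 h, and 3 higher and 3 lower at 72 h, with medians of -0.23, -0.18 and -0.10 where those of all genes were -0.08, 0.13 and 0.29. Rxrg was at 20.6, 18.8 and 20.5 FPKM in sham mice, 8.20, 11.0 and 13.2 FPKM at 6 h and 8.34, 6.17 and 6.83 FPKM at 72 h. It was lower at 6 h (-0.85, SE 0.15, adjusted p = 0.00853), at 24 h (-0.96, SE 0.23, adjusted p = 0.0185) and at 72 h (-1.38, SE 0.10, adjusted p = 3.84e-06). The 72 h split of this list depended on scaling, with 1 higher and 6 lower under median-of-ratios scaling and under quantile normalization. The calls of all genes moved toward lower as well, as given above, so the move is not particular to this list.

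Genes known to respond to retinoic acid in other settings showed no single direction. Of 10 tested, 2 were higher and 3 lower at 6 h, 2 higher at 24 h, and 4 higher and 1 lower at 72 h, with medians of 0.14, 0.09 and 0.28 where those of all genes were -0.08, 0.13 and 0.29. Both shares at 72 h were below those of all genes, and Crabp2, 1 of the 4, passed the filter through its 72 h values. Without the first 6 h mouse 2 were higher and 2 lower at 6 h, while the counts of the other lists at 6 h stayed as they were. Under median-of-ratios scaling 2 were higher and 2 lower at 24 h, and 3 were higher and 2 lower at 72 h. Quantile normalization gave 2 higher with 2 lower at 24 h, then 3 higher with 4 lower at 72 h. All genes shifted the same way under rescaling. Tgm2, tissue transglutaminase, was at 138, 157 and 140 FPKM in sham mice, 343, 257 and 258 FPKM at 6 h and 396, 379 and 496 FPKM at 24 h. It was higher at 6 h (0.96, SE 0.12, adjusted p = 0.00268), at 24 h (1.53, SE 0.12, adjusted p = 0.00143) and at 72 h (0.78, SE 0.10, adjusted p = 0.000135). Tbx5, a cardiac transcription factor, was at 13.0 ± 0.509 FPKM in sham mice and 4.15 ± 0.418 FPKM at 72 h (-1.44, SE 0.08, adjusted p = 8.14e-07). Crabp2 belongs to this list and to the carriers, and is counted in both.

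**Figure D5:**
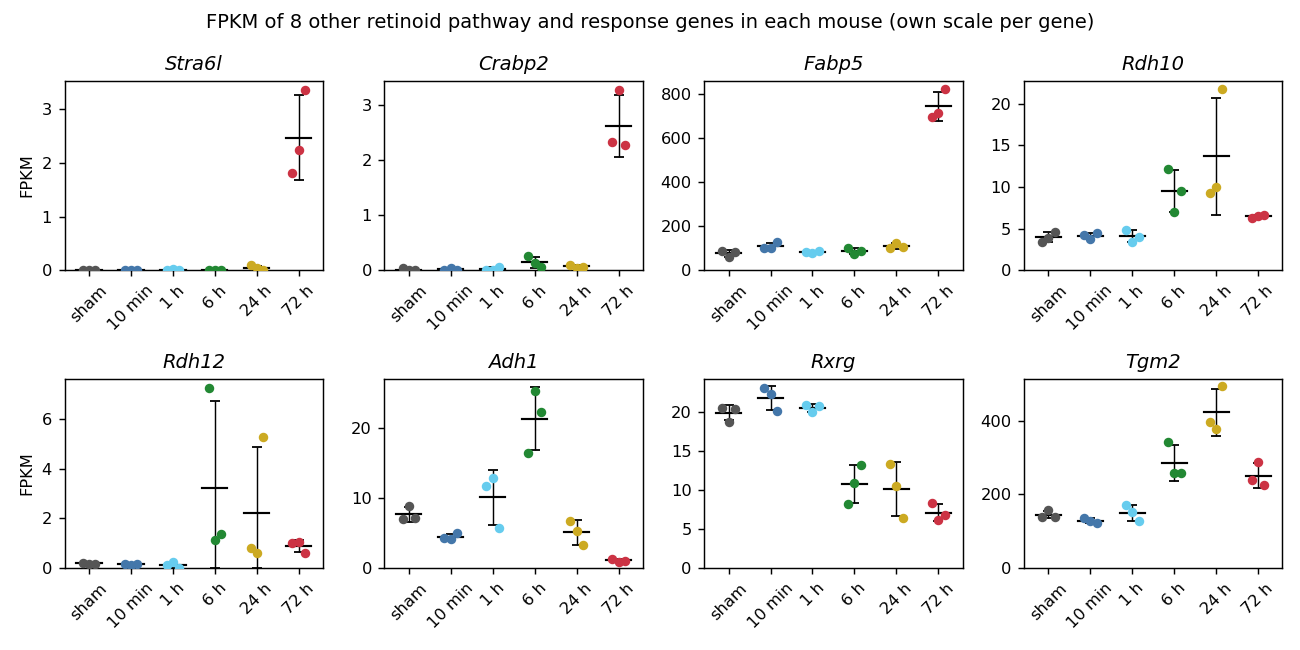
FPKM of 8 other genes of retinoid handling and response in each of the 18 mice, with a scale of its own for each gene. Points are mice, horizontal lines group means and bars ± 1 SD (n = 3), drawn down to 0 where they would go below it. Stra6l, Crabp2 and Fabp5 were high only at 72 h among these times, Adh1 peaked at 6 h, and Rxrg was lower from 6 h on.

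The genes whose levels over the 18 mice were most like those of each of the 8 genes tested were named from 12643 others by Pearson's r of log2(FPKM + 1). These values are descriptions, since all points share the same 6 groups. For Aldh1a2 they were Timp1 (r = 0.99), an inhibitor of matrix proteases, Nhp2 (0.99), a protein of small nucleolar RNA particles, and Pdpn (0.99), the membrane glycoprotein podoplanin. Timp1 was at 0.483, 0.360 and 0.450 FPKM in sham mice, 14.5, 9.81 and 10.2 FPKM at 6 h, and 33.1, 39.5 and 74.9 FPKM at 24 h. It thus rose over the same times as Aldh1a2. For Aldh1a3 they were Atp8b1 (0.98), Pgm1 (0.97) and Eif1a (0.97), and for Aldh1a1 Lrp5 (0.87), Slc43a3 (0.82) and Itpr2 (0.82).

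For Rara the most alike genes were Nlrp3 (0.97), a sensor protein of the inflammasome, Ms4a8a (0.96) and Tnfsf14 (0.96). Nlrp3 was at 4.70, 0.866 and 1.51 FPKM at 6 h and 1.51, 1.08 and 9.25 FPKM at 24 h, and was thus highest in the same mice as Rara. For Rarb they were Ifngr2 (0.92), AI414108 (0.91) and Tmem129 (0.90), and for Rarg Fam117a (0.92), Sclt1 (0.91) and Tapbpl (0.90). For Dhrs3 they were Hebp1 (0.94), Cln6 (0.94) and Tmem106c (0.94). Hebp1, a heme binding protein, was at 7.41, 7.41 and 6.18 FPKM in sham mice and 14.3, 10.4 and 14.5 FPKM at 72 h, and so was highest at 72 h like Dhrs3. For Cyp26b1 the highest values were lower, with Meig1, Cd200 and Tcf15 at 0.81 each.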

How the data were processed

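RNA was sequenced from 18 mouse hearts, with 3 mice in each of 6 groups taken from the sample titles. Per the labels and the paper's methods, cutadapt 1.18 was used by the authors for trimming, HISAT2 2.1.0 for mapping to mm10 and StringTie 1.3.4d for expression estimates. The annotation and the use of strand are not given in the sources used here. The table the authors deposited holds FPKM per gene symbol, used without further scaling. Counts are not part of it, so limma 3.58.1 (R 4.3.3, variance trend) was run on log2(FPKM + 1), with 3 mice against 3 in each of 8 comparisons and Benjamini-Hochberg adjustment over all genes tested. Of 24419 symbols, the 13333 with at least 1 FPKM in at least 1 mouse were kept, and genes constant in the compared mice were dropped. With 3 against 3, an exact permutation test of a single gene cannot go below p = 0.1. In the column names 3 of the 1 h group and 1 of the 6 h group were misspelt and were read as the only titles they can stand for. The labels give separate mice, and no batch.

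The members and the gene lists were chosen with earlier results of these data known. All 9 members are named. Cyp26b1 was left out of the counts of calls against sham at 6 h, 24 h and 72 h by plan, and of all other counts after the data were seen, as was Aldh1a3 from the counts in the report. A gene of the pathway lists is not reported here and was left out of their counts. List genes are named where called with a group mean over 1 FPKM or where they bear on a member, and the 3 most alike genes per member and the 5 most like Cyp26b1 within groups by r, without predicted genes. Gene positions are from GENCODE (mm10) and promoters from RefSeq (GRCm38.p6), with the paralog aligned by blastn 2.17.0. The test was also run on simulated data, whose settings and results are not given here, so nothing above rests on them. Alternatives were a pseudocount of 0.1, no filter, median-of-ratios scaling, quantile normalization, 1 fit over all 18 mice, no variance trend, the replicate number as a block, and leaving out each mouse. Summed FPKM in any mouse reached 2.97 for adipocyte, 0.462 for lung and 0.230 for liver markers, and group means for mural markers ran from 283 to 472 and for endothelial markers from 1109 to 2094.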

Additional observations from a re-analysis of the deposited data

How the results depend on the processing

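Over the 8 comparisons the counts of members called higher or lower, with Aldh1a3 and without Cyp26b1, were compared across the alternatives, and the cause of the differences was not tested beyond fewer mice or more genes tested. Against sham at 24 h the 2 lower became 1 without the filter and ranged from 0 to 2 when each mouse was left out. At 72 h the 1 lower became 2 after median-of-ratios scaling and 2 after quantile normalization. From 6 h to 24 h the 2 higher became 1 without the filter and 0 after median-of-ratios scaling, quantile normalization or the replicate block, with a range of 0 to 2 when each mouse was left out, and all 18 mice in 1 fit gave 1 lower in place of 0. From 24 h to 72 h the 3 higher became 1 after median-of-ratios scaling, with a range of 1 to 5 (5 without the third 24 h mouse, 1 without any one 72 h mouse). Aldh1a3, which the counts of the Results leave out, was among these 5. The higher calls of all genes fell with scaling too. From 6 h to 24 h they went from 1664 to 403 (median-of-ratios) or 371 (quantile), and from 24 h to 72 h from 3963 to 3159 or 2775. Shares of all genes with a mouse left out or without the filter are not given. The counts at 10 min, 1 h, 6 h and from 1 h to 6 h stayed within 1.5 times. The sign changed after median-of-ratios scaling for Rarg at 72 h (-0.11) and for Dhrs3 from 6 h to 24 h (-0.15, and -0.032 after quantile normalization). With each mouse left out, changes that crossed 0 ranged from -0.033 to 0.15 for Aldh1a3 at 10 min, -1.64 to 0.23 for Cyp26b1 and -0.26 to 0.023 for Rarg at 1 h, -0.15 to 0.23 for Aldh1a1 at 6 h and -0.23 to 0.0065 at 72 h. From 6 h to 24 h they ranged from -0.047 to 0.27 for Dhrs3 and -0.17 to 0.56 for Rara, and from 24 h to 72 h from -0.34 to 0.15 for Aldh1a2 and -0.36 to 0.34 for Rara. The mice do not pair by replicate number: 2 of 24 correlations of same-numbered deviations exceeded 0.1 (range -0.33 to 0.41), and 7 of 24 were highest with their own number. No depth in reads is given, and 3 mice a group limit the precision.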
